A study of Mus musculus with 8 samples.

Results

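Bdnf, the receptors that bind or sort it, the GDNF receptors and the CNTF receptor were followed across 8 RNA sequencing libraries of the mouse arcuate nucleus, the hypothalamic nucleus that holds the POMC and AgRP feeding neurons. The set was 9 genes named by symbol (Bdnf, Ntrk2, Ntrk3, Sort1, Sorcs1, Gfra1, Gfra2, Ret and Cntfr), all 9 of them found among the 13769 genes listed for the knockout or sponge comparison. They are listed with 25 transcripts. All mice were C57BL/6 aged 4 months, and each library pooled the arcuate tissue of 2 mice. Males with the genotype Pomc-Cre;miR-17-92flox/flox, in which Cre driven from Pomc deletes the miR-17-92 cluster, were compared with wild type male littermates. Females with Pomc-Cre;miR-7-sponge, in which a transcript with miR-7 binding sites takes up that microRNA, were compared with wild type female littermates. These wild type groups are called control males and control females. Each of the 4 groups had 2 libraries. Both manipulations act in cells with a history of Pomc expression, whereas the RNA came from all cells of the dissected nucleus. The floxed cluster and the sponge transcript were not analysed here, so the manipulations themselves were not checked.

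BDNF is a neurotrophin that acts through the receptor tyrosine kinase TrkB, encoded by Ntrk2, and loss of either causes overeating and obesity in mice. GDNF and neurturin bind the lipid-anchored coreceptors GFRα1 and GFRα2 and signal through the kinase RET. CNTF binds the anchored receptor encoded by Cntfr, which works with LIFR and gp130 and whose activation in the hypothalamus lowers food intake. Sortilin, encoded by Sort1, and its relative SorCS1 are sorting receptors that steer neurotrophins, their precursors and Trk receptors between compartments of the cell.

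The microRNAs of both manipulations are shown because their seeds, bases 2 to 8 in capitals, set which transcripts they pair with. Sequences are from RefSeq (GRCm38.p6), 5′ to 3′. The sponge is directed at miR-7, of which the forms 7a and 7b share a seed.
miR-7a-5p: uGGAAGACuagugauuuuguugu
miR-7b-5p: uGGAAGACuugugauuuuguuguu
The deleted cluster on chromosome 14 gives 4 seeds. miR-17 and miR-20a share one, miR-19a and miR-19b share another, and miR-18a and miR-92a have their own.
miR-17-5p: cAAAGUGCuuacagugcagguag
miR-20a-5p: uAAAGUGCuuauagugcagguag
miR-18a-5p: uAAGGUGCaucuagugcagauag
miR-19a-3p: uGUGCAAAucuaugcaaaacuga
miR-19b-3p: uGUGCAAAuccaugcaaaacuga
miR-92a-3p: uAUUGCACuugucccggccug

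The 3′ UTR of the most abundant coding transcript of each of the 9 genes (GENCODE M21, GRCm38) was searched for the reverse complements of these seeds. The letters searched for the sponge were GTCTTCC, paired by miR-7. Those searched for the cluster were GCACTTT for miR-17 and miR-20a, GCACCTT for the miR-18a seed, TTTGCAC for both miR-19 forms and GTGCAAT for the miR-92a seed. They were read on the transcript strand alone, because a microRNA pairs with RNA, and the words for miR-17, miR-18a and miR-19 share 4 letters in a row. Of the 9 genes, 5 held 1 match each, and they are printed with 27 bases and the match in capitals, to be read beside the values of those genes.
Gfra1, miR-7, chr19:58236055-58236081, minus strand: gcaagcatatagGTCTTCCatttgctg
Sorcs1, miR-7, chr19:50148920-50148946, minus strand: tcttcagttggaGTCTTCCatatttag
Ntrk2-202, miR-19, chr13:58933829-58933855, plus strand: tggattagagtgTTTGCACtggccaac
Ret, miR-19, chr6:118154720-118154746, minus strand: gctttcacatccTTTGCACcctacccc
Cntfr, miR-19, chr4:41658055-41658081, minus strand: cccggtttctatTTTGCACacgggcag
The miR-7 match occurred in 12.2% of the 13379 genes whose UTR was searched and the miR-19 match in 12.3%. The heptamers for miR-17, miR-18a and miR-92a occurred in 13.4%, 8.33% and 7.06% of them. The share of all genes with at least 1 of the 5 was not computed, so the 5 of 9 has no background here. Among genes with UTRs of similar length, the miR-7 match was in 21.2% for Gfra1 and 26.7% for Sorcs1, and the miR-19 match was in 34.1% for Ntrk2, 7.02% for Ret and 6.40% for Cntfr. In Gfra1, Sorcs1 and Cntfr the match is followed by an A, opposite base 1 of the microRNA. The UTRs searched for Bdnf, Sort1, Ntrk3 and Gfra2 did not hold any of the 5 heptamers. They were 2855, 4268, 152 and 1342 bases long. Among genes with UTRs as short as that of Ntrk3, each heptamer was in at most 0.987%, so its absence there says little. A match is a string of letters and was not tested as a site.

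Expression is given as FPKM, a count of sequenced fragments normalised for the length of the transcript and the size of the library, as the authors deposited it. The libraries had 13130 genes listed for all 8, a median FPKM of 4.67 to 5.04 and 104 to 135 genes at 0. Libraries of the same group correlated across genes with r of 0.903 to 0.910, and libraries of different groups with 0.887 to 0.915, on log2(FPKM + 1). Defining genes of arcuate neurons were present in every library, with a summed FPKM over 8 genes of 98.0 to 232. Neighbouring tissue was present too. The 7 meninges and fibroblast genes summed to 351 and 239 in the knockout, 87.5 and 79.9 in control males, 247 and 75.6 in the sponge and 73.2 and 98.1 in control females. The pituitary genes summed to 338 in knockout replicate 1 and 5.80 to 69.8 elsewhere, and the choroid plexus genes to 531 in control female replicate 2 and 8.61 to 45.7 elsewhere. Fewer cells of a type and less RNA per cell cannot be told apart in this tissue.

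Across the 9 genes, Ntrk2 was the most abundant, with a mean of 66.4 FPKM over the 8 libraries, higher than 97.7% of the genes listed. Its lowest library, at 52.2, was above the highest library of any other member. Sort1 and Gfra2 followed with means of 13.6 each, then Cntfr with 7.61, Sorcs1 with 6.64, Gfra1 with 6.49, Ret with 4.54, Ntrk3 with 4.47 and Bdnf with 2.16. The ranges of neighbours in this order overlapped below Ntrk2, so their order is not settled by 8 libraries, although Gfra2 was above Cntfr within each of the 8. The place of Ntrk3 holds for gene-level values only. Its transcript Ntrk3-005 alone had a mean of 13.1 FPKM, above the gene-level mean of 4.47. On GRCm38, as the tables give it, Bdnf lies on chromosome 2 at 109674700 to 109727007, Ntrk2 on chromosome 13 at 58806596 to 59133970, Sort1 on chromosome 3 at 108284082 to 108361511 and Gfra1 on chromosome 19 at 58235604 to 58455909. Bdnf, the ligand, had the lowest mean level of the set, above 24.4% of the genes listed.

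**Figure D1:**
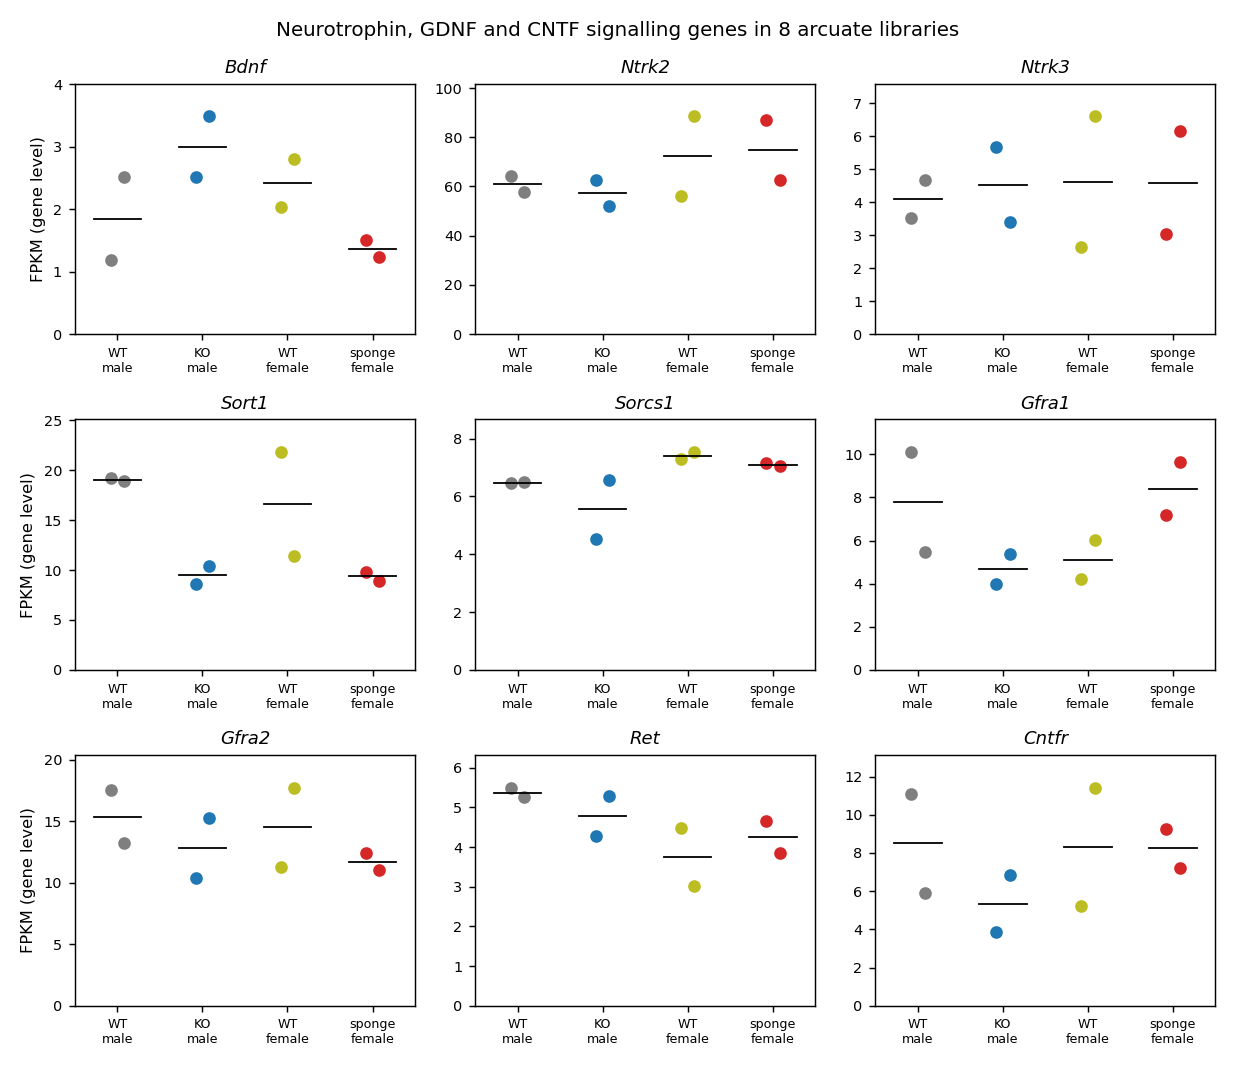
FPKM of each of the 9 genes (vertical axis, from 0) in the 8 libraries, grouped as wild type (WT) males, miR-17-92 knockout (KO) males, WT females and miR-7 sponge females; each point is 1 library and each bar the mean of 2. Sort1 was at 8.61 to 10.4 in both manipulated groups, at 18.9 and 19.2 in WT males and at 11.4 and 21.8 in WT females. Bdnf and Gfra1 lay on opposite sides of their controls in the 2 manipulated groups.

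Bdnf measured 2.52 and 3.49 FPKM in the knockout males and 1.18 and 2.52 in control males. In the females it measured 1.51 and 1.23 FPKM with the sponge and 2.03 and 2.81 in controls. The knockout libraries thus lay at or above their controls, with almost no gap between the lower knockout library and the higher control, and both sponge libraries lay below theirs. The log2 fold change was 0.52 ± 0.31 (SE, n = 2 against 2) in the knockout, with an adjusted p of 0.792 from limma with Benjamini-Hochberg adjustment over 13155 genes. In the sponge it was -0.52 ± 0.20, with an unadjusted p of 0.0561 and an adjusted p of 1 over 13157 genes (limma, Benjamini-Hochberg). Neither passed the threshold of 0.05 on the adjusted p. Genes of the ventromedial nucleus, a neighbouring nucleus rich in Bdnf, summed to 35.9 and 25.2 in the sponge and 34.2 and 40.7 in control females. Of the 4 compared in the females, 2 were lower and 0 higher without overlap, beside 30.8% of all genes in either direction. In the males those genes summed to 37.7 and 34.7 in the knockout and 36.3 and 38.6 in wild type. Of the 5 compared there, 1 was higher and 1 lower without overlap, beside 38.5% of all genes. The part of the ventromedial nucleus genes in the Bdnf values was not tested.

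Bdnf is transcribed from several promoters with separate first exons, and 5 of its transcripts were listed. The transcript Bdnf-001, with a coding sequence of 257 codons, was at 1.24 and 1.05 in the knockout and 1.49 and 1.91 in control males. With the sponge it measured 0.617 and 0.427 FPKM, beside 1.13 and 1.11 in control females. Both manipulated groups were therefore below their controls for Bdnf-001, the opposite side from the gene-level value in the knockout. Bdnf-007, with 249 codons, was at 1.06 and 1.86 against 0.202 and 1.12 in the males and at 1.18 and 1.11 against 0.222 and 0.867 in the females. The log2 fold change of Bdnf-001 was -0.33 ± 0.36 in the knockout (adjusted p = 0.886) and -0.48 ± 0.33 in the sponge (adjusted p = 0.982), with limma over 22134 and 22370 transcripts and Benjamini-Hochberg adjustment. The other 3 Bdnf transcripts were between 0 and 1.13 in the libraries that list them.

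Ntrk2 overlapped between groups. It measured 62.5 and 52.2 FPKM in the knockout and 64.3 and 57.8 in control males, and at 87.1 and 62.8 in the sponge and 56.2 and 88.5 in control females. The pair of libraries within each female group differed more than the group means did. The log2 fold change was -0.09 ± 0.20 in the knockout (95% interval -0.63 to 0.45, adjusted p = 0.919) and 0.07 ± 0.31 in the sponge (95% interval -0.80 to 0.93, adjusted p = 1) with limma and Benjamini-Hochberg adjustment. These intervals leave room for changes of either sign.

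Most of the Ntrk2 signal came from the transcript without a kinase domain. Ntrk2-202, with 476 codons, encodes the truncated TrkB receptor, which astrocytes make in quantity, and Ntrk2-201, with 821 codons, encodes the full receptor. Ntrk2-202 measured 72.4 and 77.3 FPKM in the knockout, 96.0 and 78.5 in control males, 109 and 85.9 in the sponge and 77.9 and 106 in control females. Ntrk2-201 was at 41.7 and 21, 25.2 and 29.1, 51.7 and 31.1, and 27.1 and 56.1 in the same groups. Ntrk2-202 exceeded Ntrk2-201 in each of the 8 libraries. It made up 63.4% to 79.2% of the summed FPKM of the listed Ntrk2 transcripts, with a mean of 71.9%. This share was lowest in knockout replicate 1, at 63.4%, and highest in control male replicate 1, at 79.2%. The deposited gene-level FPKM of Ntrk2 is lower than the sum of its transcripts, so shares are taken within the transcripts.

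The share of truncated Ntrk2 did not separate the groups. It averaged 71.1% in the knockout and 76.1% in control males, a difference of -5.04 percentage points (exact permutation test, two-sided p = 0.667, n = 2 against 2). It averaged 70.6% in the sponge and 69.8% in control females, a difference of 0.802 points (exact permutation test, p = 1). With 2 libraries against 2 this test cannot give a p below 0.333, and leaving out 1 library took the differences from -12.7 to 2.57 points in the knockout and from -3.60 to 5.20 in the sponge. Both knockout libraries of Ntrk2-202, the transcript whose UTR holds the miR-19 match printed above, lay below both control male libraries, with a log2 fold change of -0.21 ± 0.22 (limma, Benjamini-Hochberg adjusted p = 0.879). In this comparison 35.7% of all transcripts tested had groups that did not overlap, and 0.00904% passed. The 6 astrocyte genes summed to 281 and 223 in the knockout and 328 and 242 in control males, which overlap. Among them the gap junction gene Gja1 was listed at 0.0635 in knockout replicate 1 and at 49.4 to 63.6 in the other male libraries, which lowers the first of these sums. Slc1a2, another of the 6, was at 128 and 37.2 in the knockout and 133 and 38.1 in control males. It widens the spread of the sums within both groups. The parts of astrocytes and of the miR-19 match in the Ntrk2-202 values were not tested.

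Ntrk3, which encodes the neurotrophin-3 receptor TrkC, was at 5.68 and 3.39 in the knockout, 3.53 and 4.67 in control males, 3.05 and 6.15 in the sponge and 2.65 and 6.61 in control females. The groups overlapped in every comparison. The log2 fold changes were 0.10 ± 0.29 in the knockout and 0.03 ± 0.49 in the sponge, with adjusted p of 0.947 and 1 (limma, Benjamini-Hochberg).

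For TrkC the long receptors were the larger part. Ntrk3-002, with 612 codons, encodes the form without a kinase and measured 6.17 and 5.37 FPKM in the knockout, 4.32 and 5.25 in control males, 5.97 and 8.11 in the sponge and 4.27 and 4.75 in control females. Ntrk3-005 and Ntrk3-001, with 839 and 825 codons, ranged from 3.92 to 18.8 and from 0.436 to 6.63. The mean of Ntrk3-005 over the libraries, 13.1 FPKM, exceeded the deposited gene-level mean of 4.47. Shares are therefore again taken within the transcripts. Both manipulated groups lay above their controls for Ntrk3-002, with log2 fold changes of 0.23 ± 0.29 (adjusted p = 0.899) and 0.53 ± 0.27 (adjusted p = 0.982) with limma and Benjamini-Hochberg adjustment. In the sponge comparison 31.3% of all transcripts tested did not overlap and 0% passed. The short form made up 30.3% and 29.7% of the summed Ntrk3 transcripts in the sponge and 18.2% and 17.5% in control females. The difference of 12.2 points had the smallest p the exact permutation test can give, 0.333, and this share was looked at after its values were seen. In the males the share was 37.1% and 26.8% in the knockout and 17.6% and 28.2% in wild type, which overlap.

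**Figure D2:**
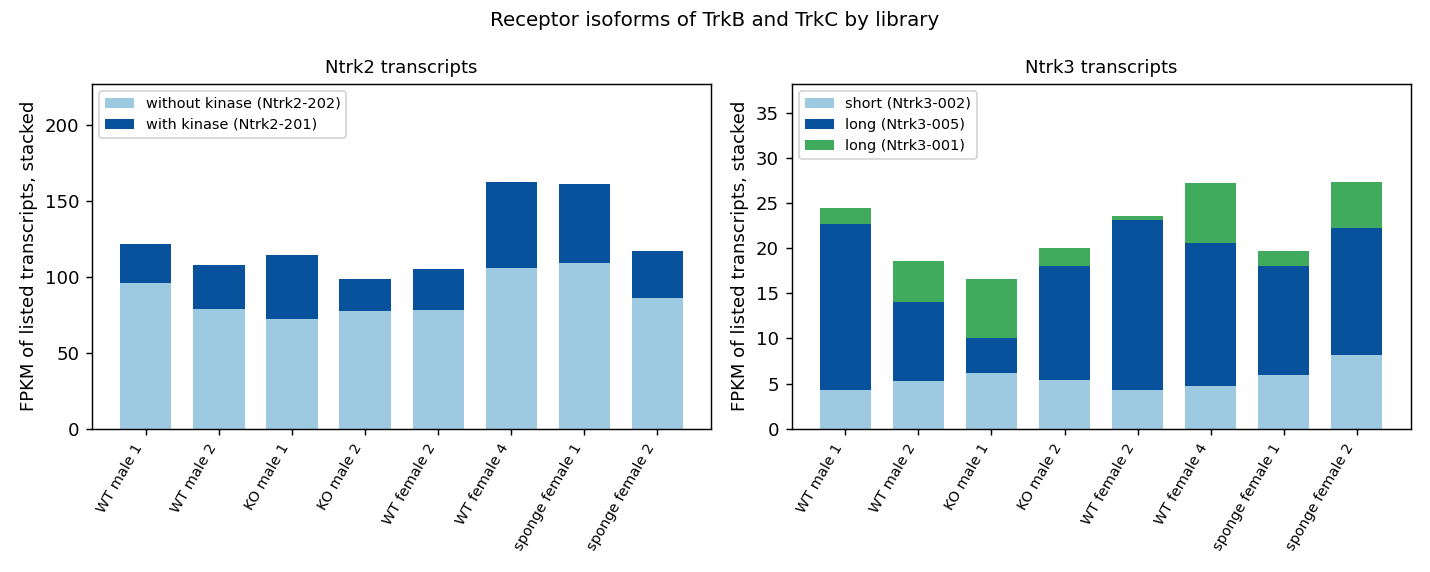
FPKM of the listed transcripts of Ntrk2 (left) and Ntrk3 (right), stacked for each of the 8 libraries; light blue marks the receptor without a kinase. The light blue part was 63.4% to 79.2% of the Ntrk2 bars and 17.5% to 37.1% of the Ntrk3 bars.

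Sort1, the sortilin gene, showed the clearest separation of the set. It measured 8.61 and 10.4 FPKM in the knockout and 19.2 and 18.9 in control males, with means of 9.53 ± 1.29 and 19.1 ± 0.188 (SD, n = 2). In the females it was at 9.79 and 8.95 in the sponge and 21.8 and 11.4 in wild type. Both knockout libraries and both sponge libraries were below their controls, by a wide gap in the males and a narrow one in the females, where 1 control library was near the sponge level. The log2 fold change was -0.94 ± 0.19 in the knockout (95% interval -1.44 to -0.43), with an unadjusted p of 0.00573, which ranked 143 of 13155 genes. After Benjamini-Hochberg adjustment over all genes limma gave 0.525, so the difference did not pass. In the authors' deposited table Sort1 had a p-value of 0.0175 and a q-value of 0.607 in this comparison.

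In the sponge the log2 fold change of Sort1 was -0.70 ± 0.34, with an unadjusted p of 0.107 and an adjusted p of 1 (limma, Benjamini-Hochberg). Without control female replicate 2, which also held the choroid plexus genes, it was -0.26, and without control female replicate 4 it was -1.14. In the knockout it stayed between -1.06 and -0.81 whichever library was left out, and was -0.81 without replicate 1, the library with the pituitary genes. Most of the signal came from Sort1-001, with 825 codons, at 7.54 and 9.99 in the knockout, 19.4 and 17.6 in control males, 9.51 and 6.11 in the sponge and 22.5 and 10.4 in control females. Its log2 fold change was -1.01 ± 0.26 in the knockout (adjusted p = 0.717) and -0.92 ± 0.45 in the sponge (adjusted p = 0.982), with limma and Benjamini-Hochberg adjustment. Sort1-004, with 858 codons, was between 1.22 and 3.68. Sortilin is made by neurons and by other cells, and the 8 arcuate neuron genes summed to 143 and 98.0 in the knockout and 196 and 158 in control males, with 3 of the 8 lower without overlap, beside 38.5% of all genes without overlap in either direction. In the females the 6 oligodendrocyte genes summed to 102 and 93.6 in the sponge and 129 and 143 in wild type, with 5 of the 6 lower without overlap, beside 30.8% of all genes. The arcuate neuron genes summed to 232 and 179 in the sponge and 186 and 202 in control females. Of these 8, 2 were higher and 0 lower without overlap. In the males the oligodendrocyte genes summed to 147 and 114 in the knockout and 97.3 and 149 in wild type. Of these 6, 2 were lower and 0 higher without overlap. The 5 general neuron genes summed to 315 and 363 in the knockout and 312 and 374 in control males. The part of these cell types and of the meninges and pituitary genes in the Sort1 values was not tested.

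Sorcs1 was nearly flat at the gene level. It measured 4.53 and 6.57 FPKM in the knockout, 6.46 and 6.49 in control males, 7.15 and 7.05 in the sponge and 7.29 and 7.53 in control females. Both sponge libraries were just below their controls, and the knockout group overlapped its controls with 1 lower library. The log2 fold changes were -0.21 ± 0.23 in the knockout (adjusted p = 0.833) and -0.05 ± 0.14 in the sponge (95% interval -0.44 to 0.33, adjusted p = 1), with limma and Benjamini-Hochberg adjustment. Sorcs1 is 1 of the 2 members with a miR-7 match. Its 4 listed transcripts differ at their ends, and the 2 most abundant, Sorcs1-001 and Sorcs1-002, ranged from 3.22 to 6.57 and from 1.48 to 6.93 FPKM. Sorcs1-001, whose UTR holds the match, had a log2 fold change of 0.17 ± 0.30 in the sponge. Sorcs1-002 had -0.56 ± 0.46 there and the low Sorcs1-003 had 0.40 ± 0.51. The part of the match in these values was not tested.

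Gfra1, the GDNF coreceptor gene, is the other member with a miR-7 match and had the highest log2 fold change of the 9 in the sponge. It measured 7.18 and 9.62 FPKM in the sponge and 4.21 and 6.02 in control females. Among males it measured 3.97 and 5.37 FPKM in the knockout and 10.1 and 5.45 in wild type. Both sponge libraries were above their controls and both knockout libraries were below theirs, the latter by a small gap. The log2 fold change was 0.62 ± 0.24 in the sponge (unadjusted p = 0.0624, adjusted p = 1) and -0.59 ± 0.33 in the knockout (adjusted p = 0.792), with limma and Benjamini-Hochberg adjustment. Without control male replicate 1 the knockout value was -0.20. The transcript Gfra1-001, whose UTR holds the match, carried most of the signal, at 7.05 and 8.5 in the sponge and 3.88 and 5.18 in control females. Its log2 fold change in the sponge was 0.67 ± 0.27 (limma, Benjamini-Hochberg adjusted p = 0.982). Gfra1-004, whose locus also spans the match, had a log2 fold change of 0.23 ± 0.45 there. Gfra1-201 and Gfra1-005, whose loci do not reach the match, had 0.48 ± 0.47 and -0.10 ± 0.30. The part of the match in these values was not tested.

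Gfra2, the neurturin coreceptor gene, was at 10.4 and 15.3 in the knockout, 17.5 and 13.2 in control males, 12.4 and 11 in the sponge and 11.3 and 17.7 in control females. The groups overlapped throughout. Its log2 fold change was -0.25 ± 0.27 in the knockout and -0.25 ± 0.26 in the sponge, with adjusted p of 0.831 and 1 (limma, Benjamini-Hochberg).

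Ret, the kinase shared by the GDNF coreceptors, was at 4.28 and 5.30 in the knockout, 5.49 and 5.25 in control males, 4.66 and 3.86 in the sponge and 4.48 and 3.03 in control females. Both manipulated groups overlapped their controls. The log2 fold changes were -0.14 ± 0.20 (adjusted p = 0.866) in the knockout and 0.16 ± 0.23 (adjusted p = 1) in the sponge, with limma and Benjamini-Hochberg adjustment. Ret-001, with 1073 codons, was more abundant than Ret-002, with 1115 codons, in each library, at 3.63 to 6.37 against 0.764 to 2.33.

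Cntfr was at 3.88 and 6.82 in the knockout, 11.1 and 5.90 in control males, 9.27 and 7.23 in the sponge and 5.24 and 11.4 in control females. Its groups overlapped, and the control libraries of both sexes spanned 5.24 to 11.4. The log2 fold change was -0.56 ± 0.39 in the knockout (adjusted p = 0.792) and 0.06 ± 0.39 in the sponge (adjusted p = 1), with limma and Benjamini-Hochberg adjustment. Ret and Cntfr both hold a miR-19 match, and both overlapped their controls in the knockout. The part of the match in these values was not tested.

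As a group, 0 of the 9 genes passed an adjusted p of 0.05 in the knockout, where 0.0608% of all genes did. In the sponge it was 0 of 9 against 0.106% of all genes. At an unadjusted p under 0.05 there was 1 of the 9 in the knockout, Sort1, against 5.33% of all genes, and 0 in the sponge, against 3.76%. The 2 groups did not overlap for 3 of the 9 genes in the knockout, against 38.5% of all genes tested, and for 4 of the 9 in the sponge, against 30.8%. Counts of this size lie close to the background of each comparison. The median log2 fold change of the 9 was -0.21 in the knockout and 0.03 in the sponge, beside 0.03 and -0.03 over all genes tested.

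**Figure D3:**
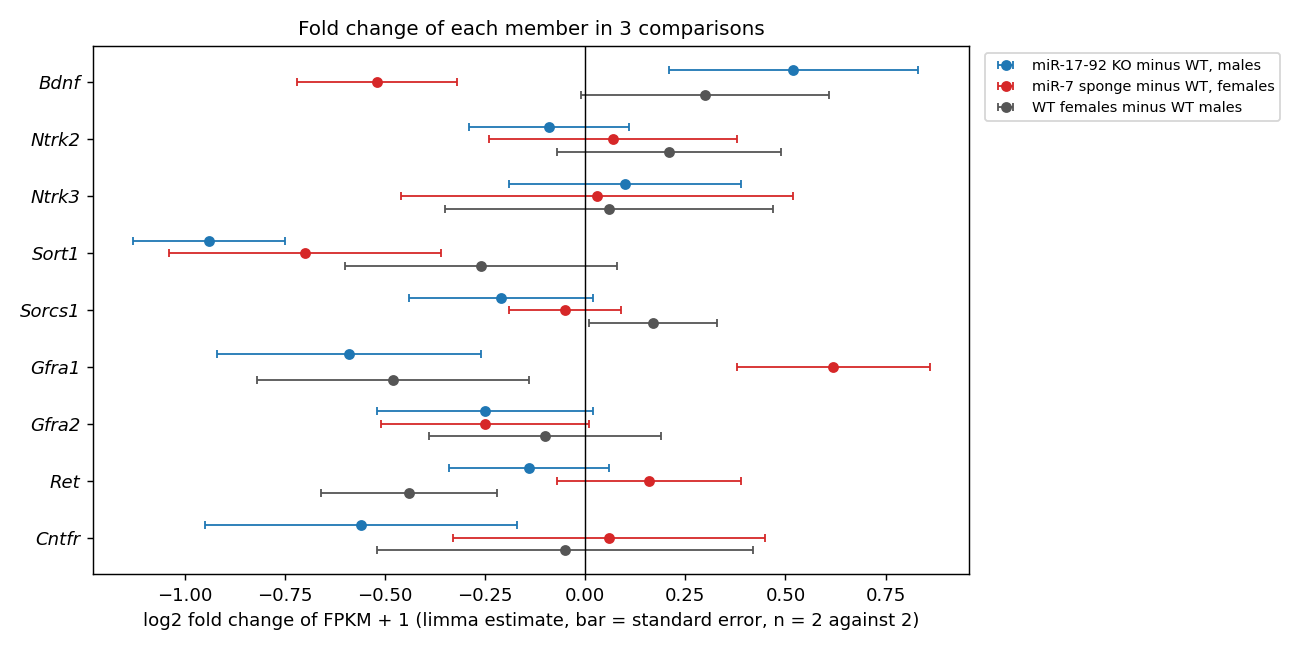
limma log2 fold change of FPKM + 1 for each of the 9 genes (points, with standard errors as bars, 2 libraries against 2) in the knockout, in the sponge and between control females and males. Sort1 was at -0.94 in the knockout and -0.70 in the sponge, and Bdnf and Gfra1 had opposite signs in these comparisons.

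The knockout and sponge comparisons use separate controls, and their difference was tested in 1 fit over all 8 libraries. For Gfra1 the knockout effect minus the sponge effect was -1.21 ± 0.45 on the log2 scale (unadjusted p = 0.0344, adjusted p = 0.922), and for Bdnf it was 1.04 ± 0.39 (unadjusted p = 0.0356, adjusted p = 0.922), with limma and Benjamini-Hochberg adjustment over 13025 genes. For Sort1 the difference was -0.24 ± 0.41 (adjusted p = 0.942), with a 95% interval of -1.23 to 0.75. None of the 9 passed, where 0.0154% of all genes did, and 2 of the 9 were under an unadjusted p of 0.05, where 4.98% of all genes were. The microRNA, the sex and the litters differ together between the 2 comparisons and cannot be told apart.

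The wild type females and males were compared for differences between the sexes. Ret measured 4.48 and 3.03 FPKM in females beside 5.49 and 5.25 in males, which gives a log2 fold change of -0.44 ± 0.22. Sorcs1 measured 7.29 and 7.53 beside 6.46 and 6.49, which gives 0.17 ± 0.16 on the log2 scale. Their adjusted p were 0.920 and 0.922 with limma and Benjamini-Hochberg adjustment over 13114 genes. For these 2 of the 9 genes the sexes did not overlap, against 34.9% of all genes tested. None of the 9 passed, where 0.0686% of all genes did, and none was under an unadjusted p of 0.05, where 4.61% were. The authors' deposited table gives Sorcs1 a p-value of 0.0149 and a q-value of 0.564, from a test that uses the spread of that gene alone. Among its transcripts, Sorcs1-002 had a log2 fold change of 1.18 ± 0.38 (limma, unadjusted p = 0.032, Benjamini-Hochberg adjusted p = 0.774). Sorcs1-001, Sorcs1-003 and Sorcs1-004 had -0.08 ± 0.40, -0.21 ± 0.50 and -1.03 ± 0.78. These wild type groups are the controls of the other comparisons and littermates of different lines, so sex and line cannot be told apart.

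The genes around these receptors were read from 5 lists of 85 genes in all, of which 67 were tested in the knockout and 68 in the sponge. None passed in either comparison, and 3 in the knockout and 4 in the sponge were under an unadjusted p of 0.05, beside 5.33% and 3.76% of all genes. Groups did not overlap for 27 of the 67 and for 23 of the 68, beside 38.5% and 30.8% of all genes. The ligand genes Ntf3, Ntf5, Gdnf, Nrtn, Artn, Pspn and Cntf were not among the tested genes. Ngfr, the p75 receptor for neurotrophins and their precursors, was at 1.88 and 2.23 in the knockout and 2.72 and 2.77 in control males. With the sponge it measured 2.16 and 1.98 FPKM, beside 1.54 and 1.35 in control females. It lay below its controls in the knockout and above them in the sponge, with log2 fold changes of -0.29 ± 0.19 (adjusted p = 0.792) and 0.33 ± 0.15 (adjusted p = 1) with limma and Benjamini-Hochberg adjustment. Furin, the protease that cleaves neurotrophin precursors, was at 0.915 and 1.61 in the knockout and 2.72 and 1.78 in control males. Sorl1, a sorting receptor related to sortilin, was at 16.7 and 18.9 in the sponge and 18.8 and 24.8 in control females, which overlap.

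In the GDNF family, Gfra4, the persephin coreceptor gene, was at 4.43 and 5.39 in the sponge and 1.5 and 3.39 in control females, a log2 fold change of 0.83 ± 0.33 (limma, Benjamini-Hochberg adjusted p = 1). In the males it was at 3.97 and 2.02 in the knockout and 4.34 and 4.19 in wild type. Like Gfra1, it therefore lay above its controls in the sponge and below them in the knockout. Gas1, a GFRα-related membrane protein gene, went the other way in the sponge. It was listed at 0 and 0.953 there and at 1.59 and 1.78 in control females (log2 fold change -0.94 ± 0.37, unadjusted p = 0.0633, limma, Benjamini-Hochberg adjusted p = 1), and was not tested in the knockout. Ncam1, the adhesion molecule that also binds GDNF, was at 49.1 to 70.3 across libraries with overlapping groups in the knockout comparison.

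In the CNTF and gp130 family the kinase gene Jak2 was at 9.51 and 9.52 in the knockout and 6.54 and 7.19 in control males, a log2 fold change of 0.42 ± 0.18 (limma, Benjamini-Hochberg adjusted p = 0.792). It was at 8.31 and 7.86 in the sponge and 10.1 and 9.51 in control females (log2 fold change -0.25 ± 0.14, limma, Benjamini-Hochberg adjusted p = 1). Il6ra, the interleukin-6 receptor gene, was at 0.416 and 0.581 in the knockout and 0.743 and 0.773 in control males. In the sponge 5 of the 8 genes of this family tested did not overlap with their controls, all 5 lower, where 30.8% of all genes did not overlap in either direction, and 0 of the 8 had an unadjusted p under 0.05. The transcription factor gene Stat3 was 1 of the 5, at 7.42 and 7.08 in the sponge and 8.51 and 9.86 in control females (log2 fold change -0.30 ± 0.16, limma, Benjamini-Hochberg adjusted p = 1). The gp130 gene Il6st was another, at 14.6 and 13.7 beside 15 and 15.4.

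Downstream, all 36 adaptor and Ras-ERK genes were tested and their median log2 fold change was -0.06 in the knockout and -0.09 in the sponge. The adaptor gene Crk was at 7.45 and 8.39 in the knockout and 4.68 and 4.68 in control males, and at 3.87 and 5.73 in the sponge and 11.4 and 7.73 in control females. Its log2 fold changes were 0.65 ± 0.18 (adjusted p = 0.792) and -0.86 ± 0.28 (adjusted p = 1), with limma and Benjamini-Hochberg adjustment, so it had the same pair of signs as Bdnf. Sh2b1, an adaptor of Trk and JAK kinases, was at 4.60 and 4.99 in the knockout and 8.60 and 6.46 in control males, and Mapk7, the ERK5 gene, at 1.33 and 1.42 in the sponge and 2.18 and 1.99 in control females. Of the activity and BDNF responsive genes, Fos was at 14 and 13.2 in the knockout and 4.35 and 8.25 in control males, and Nr4a1 at 5.42 and 10.6 against 2.38 and 3.89. Their log2 fold changes were 1.05 ± 0.32 and 1.09 ± 0.38, each with an adjusted p of 0.792 (limma, Benjamini-Hochberg). In the sponge, Dusp6, the ERK phosphatase gene that ERK signalling induces, was at 3.19 and 3.68 against 7.77 and 6.55 (log2 fold change -0.88 ± 0.17, unadjusted p = 0.00645, limma, Benjamini-Hochberg adjusted p = 0.589). Egr2, an immediate early transcription factor gene, lay the other way, at 1.12 and 0.723 against 0.263 in both controls (log2 fold change 0.60 ± 0.18, unadjusted p = 0.0295, limma, Benjamini-Hochberg adjusted p = 1). Of the 11 genes of this list in the sponge, 8 had a positive and 3 a negative fold change, with a median log2 of 0.30. Fos spanned 1.84 to 13.3 between the control female libraries. Vgf, a neurotrophin-induced gene, was at 14.4 and 1.18 in the sponge and 49.4 and 41.6 in control females. Its log2 fold change there was -3.00 (limma, unadjusted p = 0.0392), which did not pass after adjustment. In the males Vgf was at 0.941 and 45.1 in the knockout and 57.0 and 53.3 in wild type. That log2 fold change was -2.57 (limma, unadjusted p = 0.158). Between the sexes 68 of the list genes were tested, 0 passed, 5 were under an unadjusted p of 0.05 beside 4.61% of all genes, and 24 did not overlap beside 34.9%. Of the genes with the smallest p there, Cpe, Jak1, Jak2, Crk, Dok5 and Arc were higher without overlap in females and Ngfr, Gfra4 and Vgf lower, and Gas1 was listed at 0 in both control males. Single values near 0 for genes that are otherwise abundant limit what can be read from 1 library.

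**Figure D4:**
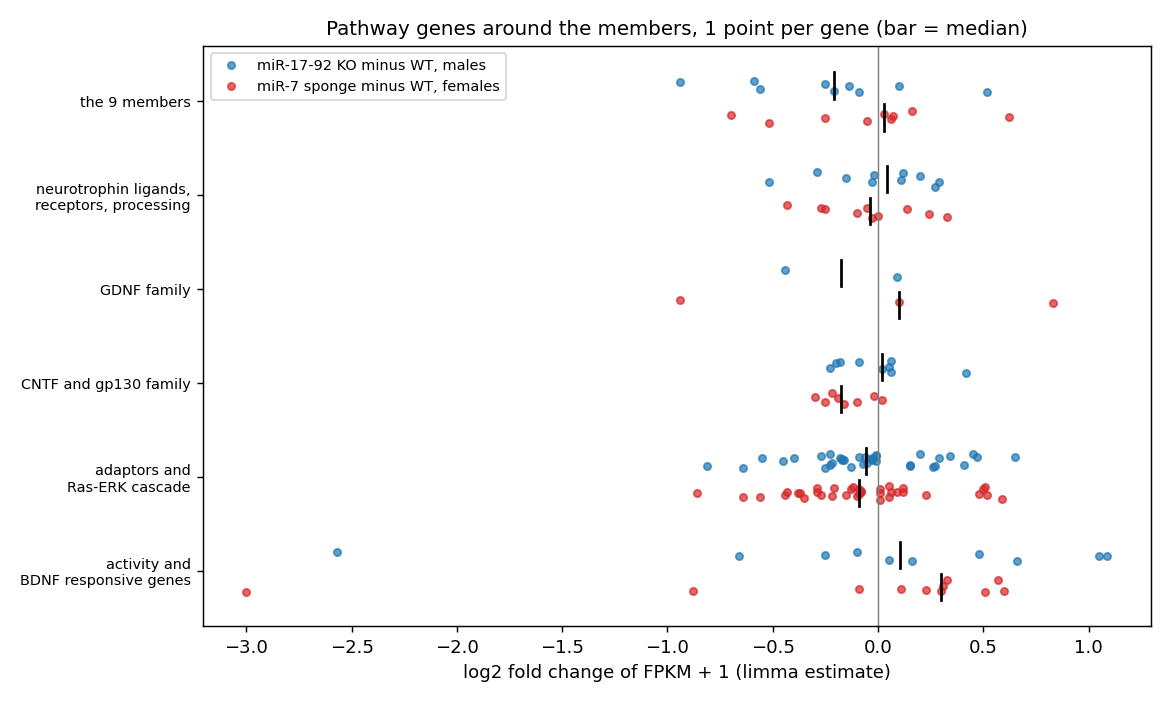
limma log2 fold change of FPKM + 1 (horizontal axis) for the 9 genes and the tested genes of 5 pathway lists, 1 point per gene, in the knockout and the sponge, with black bars at the medians. The medians of the 9 were -0.21 and 0.03, and the far left points in the lowest list are Vgf.

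By likeness over the 8 libraries, the genes whose log2(FPKM + 1) followed Bdnf most closely among 11943 were Hmgcll1, with Pearson's r of 0.969, Ap5m1 with 0.962 and Zbtb46 with 0.957. For Ntrk2 they were Tbck with 0.954, Bivm with 0.929 and Ptms with 0.928. These are descriptions over 8 libraries that share their normalization and were picked as the highest of all those genes, so no p is given.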

How the data were processed

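The 8 libraries were made, per the labels' protocols, from oligo(dT)-selected RNA of arcuate tissue cut from brain sections, with a stranded dUTP kit, and sequenced from both ends for 150 cycles. FastQC, cutadapt, HISAT2 2.0.4, StringTie 1.2.3 and the builds mm10 and GRCm38 are named per the submitters' processing notes, and their settings are not given in the sources used here. The authors deposited FPKM per gene and transcript, for which the series design text names Ballgown, in tables that also hold log2 fold changes, p-values and q-values of the authors' own comparisons. A label says that the second read file of sponge replicate 2 is lacking, and whether its FPKM rest on both reads is not given in the sources used here. The files used here hold no read totals, so depth is unknown and counting intervals cannot be given.

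From the deposited FPKM, limma 3.58.1 (R 4.3.3) was fitted to log2(FPKM + 1) with eBayes trend, separately on each comparison's 4 libraries, and for all 8 libraries for the difference of effects. Genes with a mean FPKM of at least 0.5 entered, and a Benjamini-Hochberg adjusted p under 0.05 over all of them was called. Fold changes are on the log2(FPKM + 1) scale, which understates those of low genes such as Bdnf. The fit was tested first on simulated data with changes larger than those seen for any member. That test does not cover changes of the members' size. Isoform shares were compared with an exact permutation test. Tests were two-sided. Nothing states that the pools of a group came from separate litters, so the p-values cover the spread of these pools.

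The members and lists were chosen with earlier results of these data known. Named genes are the members, all Ntrk2 transcripts and, of each pathway list, genes called or else the 2 of smallest unadjusted p. Transcripts of the other members, Gja1, Slc1a2 and Il6st were named after their values were seen. The 3 genes most like Bdnf and Ntrk2 were taken by Pearson's r. The marker lists cover neurons, glia, vessels, meninges, ependyma, choroid plexus, pituitary and neighbouring nuclei. Replicate numbers were not used as a block, and the alternatives tried are given under how the results depend on the processing.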

Additional observations from a re-analysis of the deposited data

How the results depend on the processing

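With 2 libraries a group, leaving out a library decided the sign of many small fold changes, while Sort1, Gfra1 and Bdnf in the knockout and sponge and Ret and Cntfr in the knockout kept theirs. Their size moved: in the knockout Bdnf ranged from 0.18 to 0.87, Gfra1 from -0.98 to -0.20, Cntfr from -0.97 to -0.16 and Ret from -0.27 to -0.02, and in the sponge Bdnf ranged from -0.68 to -0.36 and Gfra1 from 0.41 to 0.84. The difference in the share of truncated Ntrk2 ranged from -12.7 to 2.57 points in the knockout, from -3.60 to 5.20 in the sponge and from -10.7 to -1.90 between the sexes. No member was called under any setting run. Over the 170 values of the settings that keep all libraries, 168 kept their direction; with median-of-ratios scaling Ntrk3 between the sexes was at -0.02 and Ntrk2-202 at -0.01. The lowest adjusted p among these values was 0.441 (limma). Leaving out a library, which uses a spread with 1 lone sample assumed to vary like the others, gave in the knockout a log2 fold change of -0.22 to 0.04 for Ntrk2, -0.21 to 0.40 for Ntrk3, -0.43 to 0.02 for Sorcs1, -0.51 to 0.01 for Gfra2 and -0.35 to 0.61 for Ntrk2-201. In the sponge it gave -0.26 to 0.39 for Ntrk2, -0.50 to 0.56 for Ntrk3, -0.56 to 0.05 for Gfra2, -0.06 to 0.38 for Ret, -0.44 to 0.56 for Cntfr, -0.47 to 0.55 for Ntrk2-201 and -0.13 to 0.31 for Ntrk2-202. Between the sexes it gave -0.05 to 0.64 for Bdnf, -0.11 to 0.53 for Ntrk2, -0.47 to 0.59 for Ntrk3, -0.69 to 0.18 for Sort1, -0.40 to 0.20 for Gfra2, -0.55 to 0.45 for Cntfr and -0.16 to 0.29 for Ntrk2-202.

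Counts over all genes were less stable. The 8 genes called in the knockout became 2 with a pseudocount of 0.1 and 0 with median-of-ratios scaling (686 at an unadjusted p under 0.05), and the 2 transcripts called became 0 with a pseudocount of 0.1 (1221 at an unadjusted p under 0.05). A fit of all 8 libraries called 2 genes in the sponge in place of 14 and 3 between the sexes in place of 9. Without any 1 library these counts were 0 for genes in each comparison and for transcripts in the knockout; the cause was not tested. With the replicate number as a block, 0 genes and 0 transcripts were called in the knockout, no member changed its call, and 582 genes and 1063 transcripts were under an unadjusted p of 0.05. Deviations of same-numbered male libraries correlated at r = -0.001 over 13130 genes. This is 1 value over all genes, and a factor shared by some genes was not tested. The female groups, and the wild type groups of the 2 sexes, share only 1 replicate number, so the block could be fitted in the knockout comparison alone. The unknown depth limits what low values such as those of Bdnf can show.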
